A study of Mus musculus with 10 samples.

Results

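The 8 genes described here encode transcription factors that build and maintain the pancreatic islet: Pdx1, Nkx6-1, Nkx2-2, Neurod1, Neurog3, Mafa, Pax4 and Pax6. They were taken by symbol, by a rule that uses no measured value, although earlier results of these data were known when the list was drawn up, and all 8 were found among the 24062 genes counted. Pancreas RNA was sequenced from 5 wild-type (WT) and 5 KSR23 mice at postnatal day 5 (P5), 1 library per mouse. All animals were on the C57BL/6 strain. KSR23 mice carry the genotype label KSR23+ and combine the R23 allele, a ROSA26 knock-in of both IL-23 subunits (p19, p40) that a floxed STOP keeps silent until Cre acts, with a Cre recombinase driven by the keratin 14 promoter. The Cre is thus directed to keratinocytes, so the cells of the pancreas are not themselves the intended site of recombination, and the WT controls were littermates that do not express the cassette. The comparison asks how the islet transcription factor genes differ in the neonatal pancreas when IL-23 is produced in the skin.

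Islet cells arise from a duct-like progenitor epithelium. Neurog3 is switched on briefly in the progenitors that commit to the endocrine fate, and Neurod1, Nkx2-2, Pax4, Pax6 and Nkx6-1 then act in the sorting of beta, alpha, delta and other hormone cells. Pdx1 marks the early pancreatic bud and later the beta cell, where Pdx1, Neurod1 and Mafa bind the insulin promoters together, and Mafa rises as rodent beta cells mature after birth.

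Read counts per gene were expressed as CPM, the count of a gene per 1000000 counts of its library after scaling with the TMM method. Libraries held 26830235 to 33189132 gene counts in WT and 16715976 to 57784136 in KSR23, and KSR23 3 was the shallowest. Alignments to more than 1 place made up 49.6 to 53.7% of all tallied alignments in WT and 38.5 to 42.5% in KSR23. Il23a, which encodes p19, was at 0.0372 to 0.316 CPM in WT and 0.857 to 1.21 CPM in KSR23, with no overlap, while Il12b, which encodes p40, was at 0 to 0.240 and 0.0888 to 0.327 CPM. Reg3b, an acute-phase secreted lectin, set WT 1 and WT 2 (691 and 729 CPM) apart from the other WT libraries (4.73 to 14.6 CPM), and KSR23 lay at 14200 to 29230 CPM. For genes named from the islet and exocrine lists, calls lost without WT 1 and WT 2 are given with the gene; the markers of other cell types were not refitted without them.

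Of the 8 genes, 7 had at least 5 counts in every library and entered the test, and Pax4 did not. Mafa was lower in KSR23 pancreas, at 0.56 times its WT level, and was the only tested islet factor to pass an adjusted p of 0.05. For Nkx2-2 the KSR23 mice lay below the WT mice by a small margin, and the difference missed the threshold. Pdx1, Nkx6-1, Neurod1, Neurog3 and Pax6 did not pass the test, and their 95% intervals spanned 0. The share called, 1 of 7 or 14.3%, stood beside 31.0% of the 13882 genes tested with edgeR's quasi-likelihood test and Benjamini-Hochberg adjustment over all genes, where 16.2% were higher and 14.8% lower in KSR23. At an unadjusted p under 0.05, 2 islet factors were lower and 0 higher, and DESeq2 called the same numbers. Such counts among 7 genes are near that background and is no result about the islet factors as a group.

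**Figure D1:**
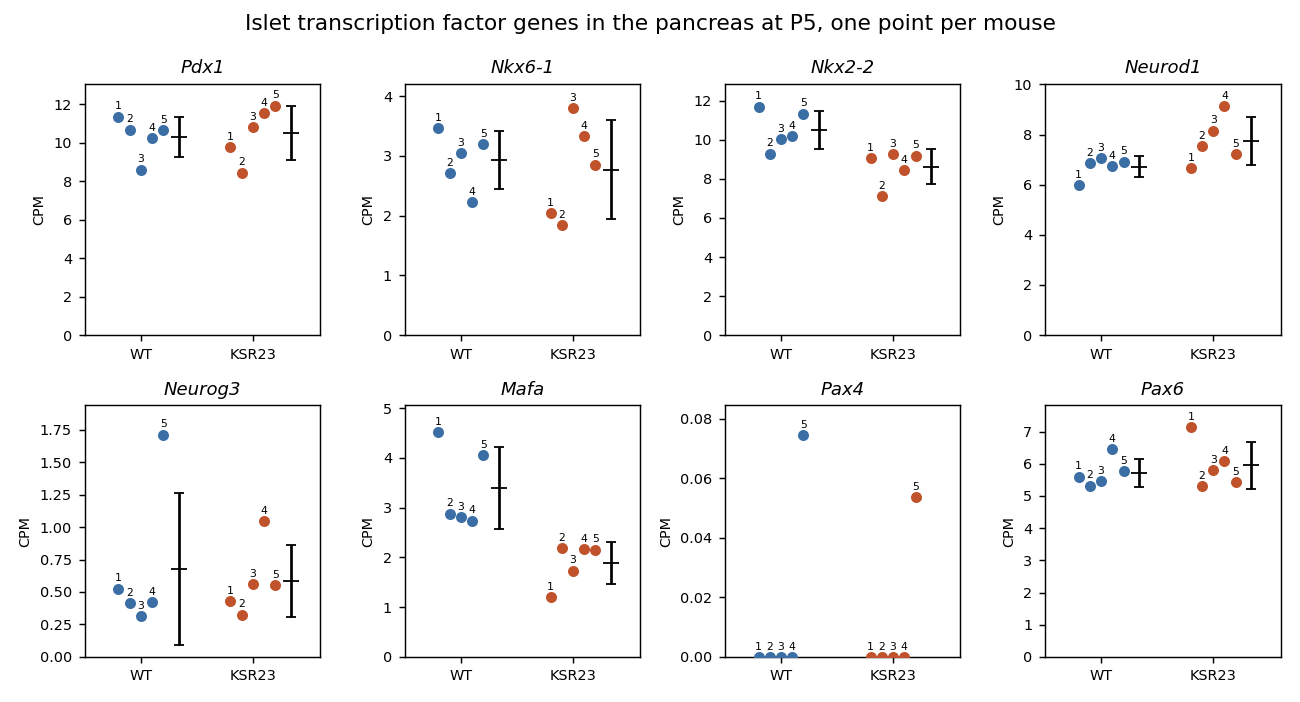
CPM (vertical axes, from 0, each gene on its own scale) of the 8 genes in WT and KSR23 pancreas, 1 numbered point per mouse, with the mean and SD of 5 mice as a bar at the right of each group except for Pax4. For Mafa the 5 KSR23 points, 1.21 to 2.19 CPM, all lie below the 5 WT points, 2.74 to 4.52 CPM.

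Mafa, which encodes the basic leucine zipper factor of mature beta cells, is a single-exon gene at chr15:75745490-75748228 on the minus strand (GRCm38). It was at 4.52, 2.88, 2.81, 2.74 and 4.06 CPM in WT 1 to WT 5. It was at 1.21, 2.19, 1.73, 2.16 and 2.16 CPM in KSR23 1 to KSR23 5. WT 1 and WT 5 were the highest libraries, KSR23 1 was the lowest, and the groups did not overlap. The mean fell from 3.40 ± 0.827 (SD, n = 5) to 1.89 ± 0.427 CPM (SD, n = 5), on 80 to 129 counts per WT library and 31 to 121 per KSR23 library. The log2 fold change (FC) was -0.84 with an SE of 0.214 and a 95% interval of -1.29 to -0.39 (edgeR's quasi-likelihood test, adjusted p = 0.00641). An exact permutation test (two-sided) on CPM, over the 252 splits of the 10 mice, gave p = 0.00794, the smallest it can give. Without WT 1 and WT 2 the log2 FC was -0.75, with an adjusted p of 0.0377. In whole pancreas RNA, fewer beta cells and less Mafa RNA per beta cell cannot be told apart.

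Nkx2-2, a homeodomain factor that keeps endocrine cells to their hormone identity, lies at chr2:147177546-147194243 on the minus strand. It was at 11.7, 9.30, 10.04, 10.2 and 11.4 CPM in WT 1 to WT 5. It was at 9.05, 7.14, 9.28, 8.46 and 9.19 CPM in KSR23 1 to KSR23 5. The groups did not overlap, but the lowest WT library, WT 2, and the highest KSR23 library, KSR23 3, were only 9.30 and 9.28 CPM. The mean was 10.5 ± 0.990 CPM in WT and 8.62 ± 0.891 CPM in KSR23 (SD, n = 5 each), with a log2 FC of -0.29, an SE of 0.109 and a 95% interval of -0.52 to -0.06. The adjusted p over all genes was 0.0530, just above the threshold of 0.05. The two-sided exact permutation test gave p = 0.00794, the smallest of 252 splits. Of all genes tested, 19.4% had CPM ranges that did not overlap between the groups, and among the islet factors these were Mafa and Nkx2-2, 2 of 7. DESeq2 called Nkx2-2 lower (adjusted p = 0.0356), and scaling by library totals alone moved its log2 FC to -0.19 (adjusted p = 0.220).

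The Nkx2-2 gene overlaps the antisense genes Nkx2-2os and 6430503K07Rik on the plus strand, and the strand setting of the counting is not given in the sources used here, so reads of the partners cannot be told apart from those of Nkx2-2 where they overlap. Nkx2-2os had 7 to 23 counts in WT and 4 to 14 in KSR23, too few to enter the test. In CPM it was at 0.246 to 0.806 in WT and 0.0714 to 0.352 in KSR23, with means of 0.495 and 0.202. The two-sided exact permutation test on CPM, unadjusted, gave p = 0.0238. 6430503K07Rik was at 1.26 to 1.61 CPM in WT and 1.07 to 1.29 CPM in KSR23, with a log2 FC of -0.36 that did not pass (adjusted p = 0.209). Their part in the Nkx2-2 values was not tested.

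Pdx1, the homeodomain factor of the pancreatic bud and of beta cells, has 2 exons at chr5:147269959-147275848 on the plus strand. It was at 11.3, 10.7, 8.60, 10.2 and 10.6 CPM in WT 1 to WT 5. It was at 9.76, 8.44, 10.8, 11.5 and 11.9 CPM in KSR23 1 to KSR23 5. The ranges overlapped almost fully, with the lowest library of each group, WT 3 and KSR23 2, next to each other. The means were 10.3 ± 1.03 and 10.5 ± 1.41 CPM (SD, n = 5 each). The log2 FC was 0.03 with an SE of 0.115, and the 95% interval of -0.21 to 0.27 leaves room for a change of that size in either direction (adjusted p = 0.884).

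Nkx6-1, a homeodomain repressor of beta cells and their progenitors, has 3 exons at chr5:101658139-101664996 on the minus strand. It was at 3.47, 2.71, 3.05, 2.23 and 3.20 CPM in WT 1 to WT 5. It was at 2.04, 1.84, 3.8, 3.33 and 2.85 CPM in KSR23 1 to KSR23 5. KSR23 held both the lowest library, KSR23 2, and the highest, KSR23 3, which was also the shallowest with 68 counts of this gene. The means were 2.93 ± 0.480 and 2.77 ± 0.836 CPM (SD, n = 5 each), and the log2 FC of -0.09 (SE 0.211) had a 95% interval of -0.54 to 0.35 and an adjusted p of 0.774. The interval is wide enough to hold both no change and a fall by 0.54 on the log2 scale.

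Neurog3, the basic helix-loop-helix factor of endocrine progenitors, lies at chr10:62133090-62134763 on the plus strand. It had 15, 12, 9, 13 and 46 counts in WT 1 to WT 5, or 0.316 to 1.71 CPM. It had 17, 11, 10, 42 and 31 counts in KSR23 1 to KSR23 5, or 0.326 to 1.05 CPM. WT 5 stood alone at 1.71 CPM against 0.525 CPM or less in the other WT libraries, and KSR23 4 was the highest of its group. The means were 0.677 ± 0.584 and 0.582 ± 0.276 CPM (SD, n = 5 each). The log2 FC of -0.19 (SE 0.443, adjusted p = 0.782) turned to 0.48 without WT 5 (adjusted p = 0.362), so no direction can be given at this depth. The gene overlaps Fam241b on the other strand.

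Neurod1, the helix-loop-helix factor that acts after Neurog3 and binds the insulin promoters, lies at chr2:79452521-79456751 on the minus strand. It was at 5.99, 6.86, 7.05, 6.74 and 6.92 CPM in WT 1 to WT 5. It was at 6.66, 7.55, 8.16, 9.13 and 7.23 CPM in KSR23 1 to KSR23 5. The 4 KSR23 libraries other than KSR23 1 lay above every WT library, and KSR23 1 lay within the WT range. The means were 6.71 ± 0.421 and 7.75 ± 0.944 CPM (SD, n = 5 each), with a log2 FC of 0.20, an SE of 0.116, a 95% interval of -0.04 to 0.45 and an adjusted p of 0.198. Neurod1 overlaps Cerkl on the same strand, and 95.2% of the stretches of 75 bases of its transcript occurred in no annotated transcript of another gene, against 100% for each of the other 7 islet factors. Cerkl itself was at 0.548 to 1.02 CPM in WT and 0.846 to 1.30 CPM in KSR23.

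Pax6, a paired-box and homeodomain factor of all islet endocrine cells, lies at chr2:105668900-105697364 on the plus strand. It was at 5.60, 5.32, 5.47, 6.45 and 5.77 CPM in WT 1 to WT 5. It was at 7.14, 5.30, 5.81, 6.09 and 5.44 CPM in KSR23 1 to KSR23 5. The groups overlapped, and KSR23 1 was the only library above WT 4. The means were 5.72 ± 0.438 and 5.96 ± 0.731 CPM (SD, n = 5 each), with a log2 FC of 0.06, an SE of 0.125, a 95% interval of -0.20 to 0.32 and an adjusted p of 0.763. Its antisense partner Pax6os1 had 4 to 20 counts per library.

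Pax4, a paired-box factor of the beta and delta lineages, lies at chr6:28442334-28449353 on the minus strand. It had 0 counts in 8 libraries, 2 counts in WT 5 and 3 counts in KSR23 5. A count of 0 allows up to 3 counts, which is 0.0746 to 0.168 CPM in those 8 libraries. The 2 libraries with a count stood at 0.0745 and 0.0535 CPM, so Pax4 was at or under that limit in both groups, and no fold was computed (exact permutation test on CPM, two-sided, p = 1). A difference in Pax4 was not detectable at this depth.

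**Figure D2:**
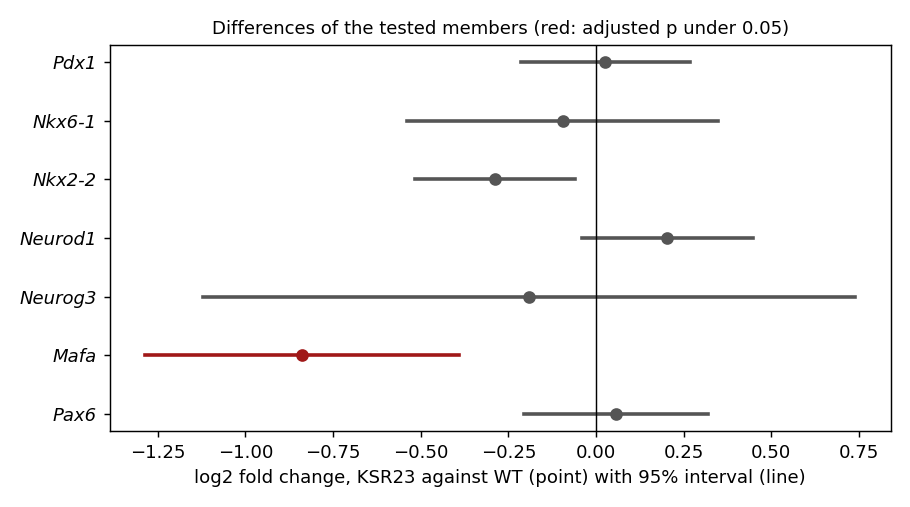
Log2 FC of KSR23 against WT (horizontal axis) for the 7 islet factor genes tested, as points with 95% intervals as lines from edgeR's quasi-likelihood fit over 5 mice per group. Mafa lies at -0.84, Nkx2-2 at -0.29, and the intervals of the other genes cross 0.

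Levels between genes were compared only per length, as CPM per kilobase of all annotated exons of a gene. In WT the order was Pdx1 at 4.78 ± 0.478, Nkx2-2 at 3.66 ± 0.344, Neurod1 at 2.46 ± 0.154, Mafa at 1.24 ± 0.302, Nkx6-1 at 0.934 ± 0.153, Pax6 at 0.489 ± 0.0375, Neurog3 at 0.404 ± 0.349 and Pax4 at 0.0103 CPM per kilobase (SD, n = 5). The ranges over the WT libraries of Pdx1 and Nkx2-2, of Mafa and Nkx6-1, and of Pax6 and Neurog3 overlapped. Both genes of a pair were measured in the same libraries, so overlapping ranges do not show equal levels within a library. The pairs were not compared library by library. The overlap of Pax6 and Neurog3 rested on WT 5 alone, where Neurog3 reached 1.02 CPM per kilobase. In KSR23 Mafa, at 0.690 ± 0.156, came after Nkx6-1, at 0.884 ± 0.267 CPM per kilobase, with overlapping libraries. Nkx2-2 and Neurod1 also came within each other's range in KSR23, at 2.999 ± 0.310 and 2.84 ± 0.346 CPM per kilobase.

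The place of Pax6 in this order rested on its length. Its annotated exons together hold 11694 bases from 26 transcripts, while its longest coding transcript holds 4427. Over the longest coding transcript Pax6 was at 1.29 CPM per kilobase in WT, in place 4 and next to Mafa at 1.24, and Nkx2-2, at 4.96, came before Pdx1, at 4.78. The order of Pdx1 and Nkx2-2 in WT was thus set by the length used.

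**Figure D3:**
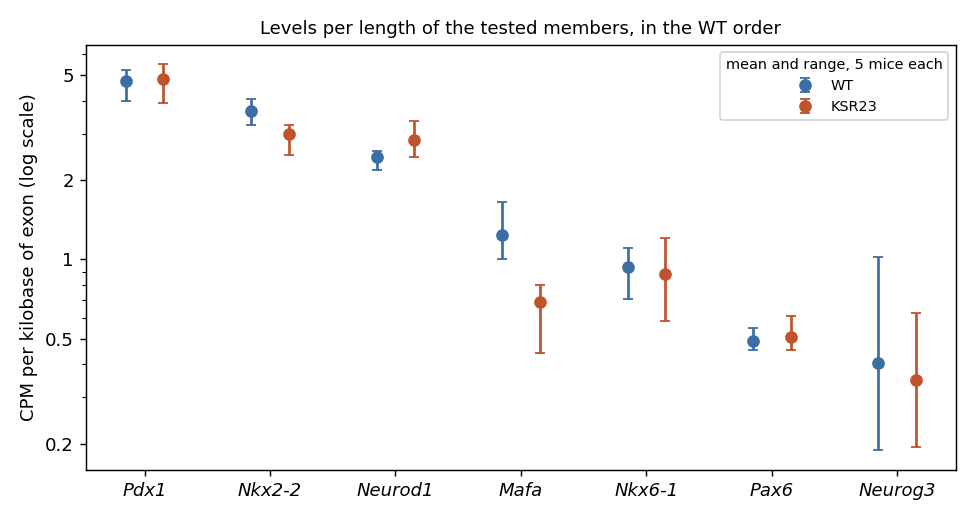
CPM per kilobase of exon (vertical axis, log scale) of the 7 tested islet factor genes in their WT order, as the mean (point) and lowest to highest library (line) of 5 WT and 5 KSR23 mice. Pdx1, Nkx2-2 and Neurod1 lie between 2.19 and 5.52 CPM per kilobase in all libraries, and Mafa in KSR23 lies between 0.441 and 0.8.

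Other transcription factor genes of the endocrine pancreas moved in either direction. Of 23 listed, 20 were tested, 5 were higher and 3 lower, with a median log2 FC of 0.03 beside -0.01 over all genes. Mnx1, a beta cell homeodomain gene, rose with a log2 FC of 1.16 (adjusted p = 0.0185) from a low level of 0.387 to 0.853 CPM. Glis3, which acts on the insulin gene, had a log2 FC of 0.68 (adjusted p = 0.0321), and Sox4 one of 0.38 (adjusted p = 0.00706). Hhex, which delta cells need, had a log2 FC of 0.32 (adjusted p = 0.0135). Lower were Sox11, at a log2 FC of -0.79 (adjusted p = 0.0199), Insm1, a zinc finger gene of endocrine differentiation, at -0.51 (adjusted p = 0.0148), and Foxa2, at -0.41 (adjusted p = 0.00479). The Insm1 call was lost with library totals alone (adjusted p = 0.0550). Isl1, which acts across islet cell types, was at 15.2 ± 0.523 and 16.5 ± 1.42 CPM (SD, n = 5 each) and did not pass the test. Fev, at a log2 FC of -0.01, changed sign with the scaling. With WT 1 and WT 2 left out 5 of the list were called, and the calls of Mnx1 (adjusted p = 0.0947), Glis3 (adjusted p = 0.145) and Foxa2 (adjusted p = 0.0503) were lost. Without KSR23 5 the number was also 5, with Mnx1, Glis3 and Sox11 lost. Over the 20 alternatives the Glis3 call was lost under 6 and the Mnx1 call under 3.

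Log2 ratios set Mafa against other beta cell genes of the same libraries. Mafa relative to Pdx1 was at -1.90 to -1.33 in WT and -3.02 to -1.95 in KSR23, without overlap. Mafa relative to Ins2 was at -10.84 to -10.01 in WT and -10.80 to -10.09 in KSR23, and these ranges overlapped. Relative to Ins2, Pdx1 was at -8.94 to -8.28 in WT and -8.14 to -7.67 in KSR23. These ratios were chosen after the values had been seen and carry no test.

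The hormone genes, which lie downstream of the islet factors, all passed the test, 5 lower and 3 higher in KSR23. Gcg (glucagon) had a log2 FC of -1.12 (adjusted p = 3.11e-07), with 3397 ± 414 CPM in WT and 1568 ± 192 in KSR23 (SD, n = 5 each). Sst (somatostatin) had a log2 FC of -0.92 (adjusted p = 9.09e-06). Ins2 had a log2 FC of -0.75 (adjusted p = 8.22e-05), with 4206 ± 676 CPM in WT and 2496 ± 269 in KSR23. Iapp, which is co-secreted with insulin, had one of -0.68 (adjusted p = 3.56e-05), and Ins1 one of -0.39 (adjusted p = 0.0291). The Ins1 call was lost under 5 of 20 alternatives (adjusted p up to 0.0982): with library totals alone and without WT 1, WT 4, KSR23 1 or KSR23 2. Ppy, Pyy and Ghrl, the pancreatic polypeptide, peptide YY and ghrelin genes, were higher, with log2 FC of 0.95 (adjusted p = 0.00133), 0.52 (adjusted p = 0.0153) and 0.40 (adjusted p = 0.0450). The Ghrl call was lost under 12 of 20 alternatives, also without WT 1 and WT 2 (adjusted p = 0.193). The Pyy call was lost with DESeq2, which called 2 hormones higher, and without WT 1 and WT 2 (adjusted p = 0.0673). The median log2 FC of the 8 was -0.53. The summed hormone level was 7911 to 11220 CPM in WT and 4958 to 6278 CPM in KSR23, whereas the summed level of the islet factors was 37.3 to 43.7 and 32.8 to 41.7 CPM, which overlap.

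Promoters of hormone genes that fell are printed, with the kinds of core motif that the islet factors bind marked in them. The promoter of Ins2, which also fell, was not analysed here. They are the RefSeq promoters (250 bases before to 50 after the start, GRCm38.p6) of Ins1 at chr19:52264047-52264346 on the plus strand, Iapp at chr6:142298175-142298474 on the plus strand, Gcg at chr2:62483604-62483903 on the minus strand and Sst at chr16:23890795-23891094 on the minus strand. Each is written 5′ to 3′ in the direction of the gene. Capitals mark TAAT (core of homeodomain sites such as those of Pdx1 and Nkx6-1), CANNTG (the E-box of Neurod1 and Neurog3) and TCAGC (part of the Maf recognition element), on either strand, with overlapping matches merged.
Ins1: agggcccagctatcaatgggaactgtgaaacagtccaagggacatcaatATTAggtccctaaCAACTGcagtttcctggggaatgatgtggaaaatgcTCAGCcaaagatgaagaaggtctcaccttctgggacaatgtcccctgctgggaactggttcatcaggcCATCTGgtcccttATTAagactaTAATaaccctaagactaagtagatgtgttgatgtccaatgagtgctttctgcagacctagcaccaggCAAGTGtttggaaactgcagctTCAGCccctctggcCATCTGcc
Iapp: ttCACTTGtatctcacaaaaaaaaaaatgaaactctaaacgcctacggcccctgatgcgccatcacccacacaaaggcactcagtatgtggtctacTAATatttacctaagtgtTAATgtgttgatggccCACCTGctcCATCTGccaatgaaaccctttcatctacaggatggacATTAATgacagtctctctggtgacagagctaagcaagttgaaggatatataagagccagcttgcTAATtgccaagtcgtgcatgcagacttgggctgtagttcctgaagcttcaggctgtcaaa
Gcg: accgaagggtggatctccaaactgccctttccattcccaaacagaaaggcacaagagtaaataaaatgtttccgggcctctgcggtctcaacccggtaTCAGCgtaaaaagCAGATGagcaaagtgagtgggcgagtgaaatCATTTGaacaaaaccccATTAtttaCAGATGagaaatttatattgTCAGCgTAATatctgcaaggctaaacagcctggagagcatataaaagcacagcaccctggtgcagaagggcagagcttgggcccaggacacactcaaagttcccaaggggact
Sst: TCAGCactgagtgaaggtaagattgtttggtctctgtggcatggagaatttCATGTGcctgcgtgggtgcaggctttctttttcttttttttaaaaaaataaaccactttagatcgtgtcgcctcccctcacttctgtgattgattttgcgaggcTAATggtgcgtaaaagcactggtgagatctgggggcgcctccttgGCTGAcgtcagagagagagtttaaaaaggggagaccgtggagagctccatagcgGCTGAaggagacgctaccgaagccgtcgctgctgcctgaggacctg

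Ins1 held 3 TAAT, 4 CANNTG and 2 TCAGC matches, Iapp 5, 3 and 0, Gcg 2, 3 and 2, and Sst 1, 1 and 3. These short motifs are common: of 32851 RefSeq promoters of the same length 58.0% held TAAT, 72.3% held CANNTG, 54.2% held TCAGC and 24.1% held all 3. Of 11 promoters of 7 hormone genes, 4 held TAAT, and these are the ones printed, while 10 held CANNTG, 9 held TCAGC and 3 held all 3. The TAAT share of 36.4% was below that of all promoters. A match is a description of the letters and not evidence of binding. Promoter sequences of 6 of the 8 islet factors were matched, and those of Mafa and Pax4 were not analysed here.

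Genes for the secretory granule and hormone processing, shared by islet endocrine cells, were mostly lower where they passed. All 19 were tested, 9 were lower and 2 higher, with a median log2 FC of -0.28. Vgf, a granule peptide precursor, had the largest change of the list, a log2 FC of -2.27 (adjusted p = 7.06e-07), followed by the prohormone convertase gene Pcsk1 at -0.997 (adjusted p = 1.17e-07) and the carboxypeptidase gene Cpe at -0.73 (adjusted p = 4.21e-08). The granule membrane genes Ptprn and Ptprn2 were lower by log2 FC of -0.72 (adjusted p = 8.18e-05) and -0.64 (adjusted p = 1.26e-05). Pcsk1n, an inhibitor of Pcsk1, was higher by 0.61 (adjusted p = 0.00135). The Chga call, at a log2 FC of -0.32 (adjusted p = 0.0180), was lost under 4 of 20 alternatives (adjusted p up to 0.127): with library totals alone, without WT 1 and WT 2, and without KSR23 2 or KSR23 5. Scg5, Snap25 and Syt7, which were not called, changed sign with the scaling.

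Among 15 genes of beta cell glucose sensing and channels, several of which are known targets of Pdx1 and Mafa, 9 were lower and 0 higher (1 higher at an unadjusted p under 0.05, 0 with DESeq2), with a median log2 FC of -0.45. Sytl4, which docks granules, was lower by a log2 FC of -1.01 (adjusted p = 1.12e-05), the gap junction gene Gjd2 by -0.91 (adjusted p = 0.00902) and the GLP-1 receptor gene Glp1r by -0.90 (adjusted p = 0.000451). G6pc2, the islet glucose-6-phosphatase gene, was lower by -0.82 (adjusted p = 4.7e-05), Ucn3, a marker of mature beta cells, by -0.65 (adjusted p = 0.00363), and Slc2a2, which encodes the glucose transporter GLUT2, by -0.56 (adjusted p = 0.00079). The Nnat call, at -0.45 (adjusted p = 0.0280), was lost under 5 of 20 alternatives (adjusted p up to 0.0911): with library totals alone, without WT 1 and WT 2 together, and without WT 1, WT 5 or KSR23 2.

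**Figure D4:**
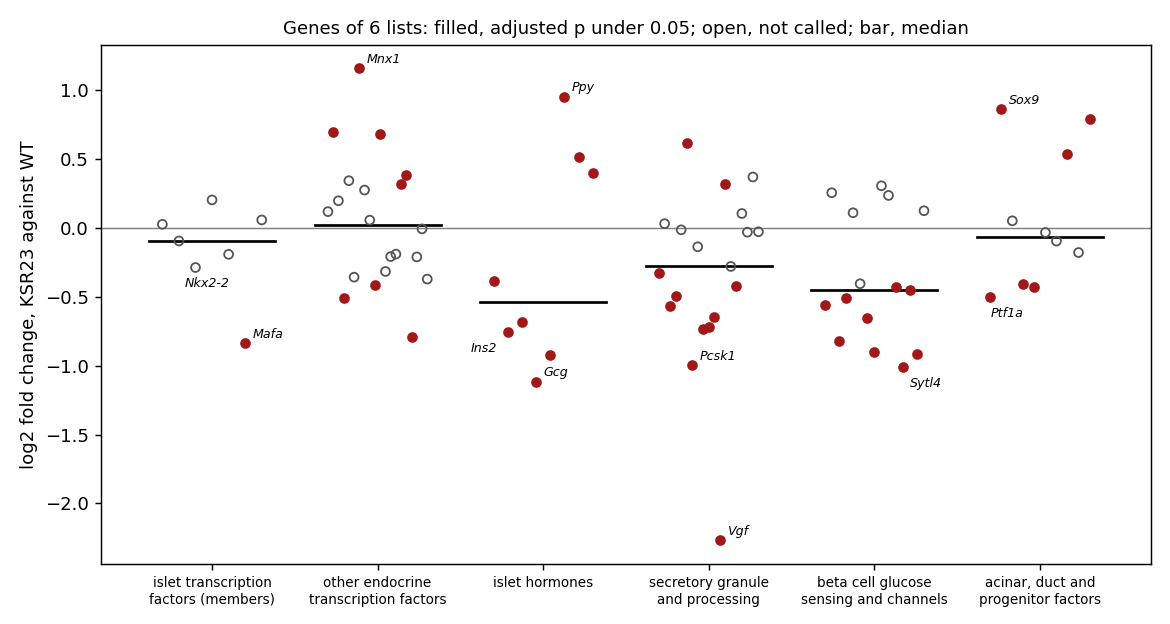
Log2 FC of KSR23 against WT (vertical axis) for each tested gene of 6 lists (horizontal axis), filled where the adjusted p of edgeR's quasi-likelihood test was under 0.05 and open otherwise, with the list median as a bar. The medians were -0.09 for the islet factors, 0.03 for the other endocrine factors, -0.53 for the hormones, -0.28 for granule genes, -0.45 for beta cell function genes and -0.06 for acinar, duct and progenitor factors.

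The islet factors were also set against the granule genes, of which 9 were lower, 2 higher and 8 not called, by scaling every library to an equal mean log2 CPM of the 19 granule genes. This scaling moved the median log2 FC of all genes to 0.33 and called 52.5% of them, 49.3% higher and 3.17% lower. Against this reference Neurod1 was higher by a log2 FC of 0.53 (adjusted p = 0.00122), Pax6 by 0.40 (adjusted p = 0.0223) and Pdx1 by 0.36 (adjusted p = 0.0203), beside the shift of 0.33 for the median gene. The count of 3 higher among 7 is close to the background share and is read as nothing about the islet factors. Mafa, at -0.50 (adjusted p = 0.0543), Nkx2-2, at 0.05 (adjusted p = 0.747), Nkx6-1, at 0.23 (adjusted p = 0.349), and Neurog3, at 0.15 (adjusted p = 0.775), did not pass. The Mafa value passed without WT 3, WT 4, KSR23 2 or KSR23 5, and its adjusted p ranged from 0.0430 to 0.172 over 11 alternatives. With the hormone genes as the reference 0 islet factors were called, with 1 higher and 1 lower at an unadjusted p under 0.05.

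Factors of acinar, duct and progenitor cells gave the setting of these values in a tissue that is mostly exocrine. Of 10, 3 were higher and 3 lower: among them the duct and progenitor genes Sox9 (log2 FC 0.86, adjusted p = 1.03e-05) and Hes1 (0.79, adjusted p = 1.87e-06) were higher, and the acinar genes Ptf1a (-0.50, adjusted p = 0.00218), Bhlha15 (-0.43, adjusted p = 0.00185) and Rbpjl (-0.40, adjusted p = 0.000673) were lower. Gata4, which was not called, changed sign with the scaling. Acinar markers were lower in 4 of 5 and duct markers higher in 4 of 5. Summed acinar markers were at 168200 to 181900 CPM in WT and 106700 to 133800 CPM in KSR23, so the makeup of the RNA in which the islet factors were measured differed between the groups. Their part in the islet factor values was not tested.

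Markers of other cells in which islet factor genes are also used were checked. Of 7 neuron and Schwann cell markers 0 passed with edgeR's quasi-likelihood test (2 higher at an unadjusted p under 0.05, 1 higher with DESeq2), and their summed level was 10.2 to 15.6 CPM in WT and 12.4 to 17.0 CPM in KSR23. Of 9 intestinal epithelium markers 2 had enough counts to be tested, and Vil1 was higher (log2 FC 0.41, adjusted p = 0.0336), and Olfm4 did not pass. The other 7 were low, with Cdx2 at 0 counts in 9 of 10 libraries, but Fabp1 (0.0829 and 0.422 CPM), Fabp2 (0.108 and 0.466), Alpi (0.0482 and 0.418) and Lct (0.0278 and 0.199) had higher means in KSR23 than in WT. In two-sided exact permutation tests on CPM, unadjusted, Lct gave p = 0.0397, Fabp1 0.0556, Fabp2 0.119 and Alpi 0.381. The KSR23 medians of Fabp1, Fabp2 and Alpi were 0.199, 0.201 and 0.0746 CPM, below their means, with maxima of 1.303, 1.628 and 1.865 CPM. Cdx1 had a lower mean in KSR23 (0.0342 CPM) than in WT (0.0421 CPM). The summed level of the 9 was 5.97 to 8.27 CPM in WT and 8.71 to 13.0 CPM in KSR23. Most of this sum was Vil1, with means of 6.23 CPM in WT and 8.32 CPM in KSR23. The means of the sum were 7.35 and 11.1 CPM. Of 4 stroma markers 0 passed with the same test, at an unadjusted p under 0.05 or with DESeq2, and of 3 endothelial markers Kdr was higher and Cdh5 lower. Of 8 immune markers 6 were higher and 1 lower in KSR23, and their summed level was 87.8 to 97.7 CPM in WT and 119 to 292 CPM in KSR23. The part of these cells in the islet factor values was not tested.

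For each tested islet factor the genes nearest in pattern were those with the smallest root mean square difference of centred log2 CPM over the 10 libraries, among the 13882 genes. Mafa was nearest to Fign (0.178), Sostdc1 (0.196) and Efcab4b (0.201), beside a median of 0.559 over all genes. Nkx2-2 was nearest to Mrpl55 (0.0855), 2010300C02Rik (0.0913) and Ccdc166 (0.0929), with a median of 0.297. The nearest to Pdx1 were Zfp524, Ring1 and Stard5 (0.0698 to 0.0813), to Neurod1 Gtf2h1, Tmem141 and Cog4 (0.0691 to 0.0811), and to Pax6 Gopc, Smug1 and Foxp1 (0.0693 to 0.0718). Nkx6-1, nearest to Dcaf15, Samd4 and Mapk11 (0.157 to 0.182), and Neurog3, nearest to Ntm, Kif7 and Bean1 (0.301 to 0.370), had looser neighbours. No other islet factor was among the 3 nearest of any islet factor. The measure describes these libraries, which share their depth and scaling, and carries no test.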

How the data were processed

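Pancreas was homogenized in Trizol, and total RNA was primed with oligo-dT in the SMART-Seq v4 kit, amplified and sequenced from 1 end. The authors deposited raw read counts per gene for each library. Per the labels' processing notes these came from TopHat2 2.1.0 and HTSeq 0.6.1p1 (mm10). The study's methods state strict intersection of reads with transcript models, and the strand setting is not given in the sources used here. No molecular identifiers are described, so the floors cover counting error only. The intervals come from edgeR's quasi-likelihood fit over the mice of each group, so they also include the spread between mice. The 5 HTSeq tallies per file of alignments given to no gene were kept out of totals and tests.

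The 57.7% of genes that reached 5 counts in each of the 10 libraries were fitted with edgeR 4.0.16 in R 4.3.3, using TMM scaling, the quasi-likelihood test and Benjamini-Hochberg adjustment over all genes tested. A gene was called at an adjusted p under 0.05. CPM uses TMM-scaled library sizes, and log2 CPM for nearest genes has a prior count of 2. The log2 ratios were taken from CPM without a prior count. The SE is the size of the log2 FC over the square root of the F statistic. Replicates are separate samples per the labels, and no pair of libraries of a group agreed within sampling noise (smallest chi-square per degree of freedom 11.8). Gene models are from GENCODE M21 (GRCm38), while the annotation behind the counts is not given in the sources used here. The genes and lists were chosen with earlier results of these data known. Beside the islet factors and all hormones, the text names up to 6 called genes per list by size of log2 FC, further called genes of the endocrine factor list, genes whose call or sign turned with the scaling, Isl1, chosen after its values were seen, and, as nearest in pattern, 3 genes per islet factor. Alternatives were DESeq2 1.42.0, the likelihood ratio test, other scalings and filters, a replicate block and leaving out libraries. Some genes of these lists are counted but not reported by name here. The fit was tested on simulated data.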

Additional observations from a re-analysis of the deposited data

Results flagged for a closer look

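Among 94 groups of 5 libraries of the listed genes, 10 held 1 library far from its group, where chance gives about 4.7, or 1 in 20. Of the islet factors, Neurog3 stood at 1.71 CPM (46 counts) in WT 5 against 0.316 to 0.525 in the other WT libraries. Pax4 stood at 0.0745 CPM (2 counts) in WT 5 and at 0.0535 CPM (3 counts) in KSR23 5, with 0 counts in all others. Where all other libraries of a group have 0 counts, any count meets the rule, so the Pax4 flags carry no weight. WT 5 was the highest WT library for Neurog3. Its 2 Pax4 counts, under the 3 counts that a count of 0 allows, add nothing to that. Sox11 was low in WT 2, at 1.75 CPM against 3.03 to 3.26, and Sox9 low in WT 3, at 49.4 against 65.1 to 68.3 CPM. Pcsk1 was low in WT 1, at 27.4 CPM against 31.4 to 32.7. In KSR23 3, the shallowest library, Pyy was at 312.3 CPM against 172.2 to 211.1, and Ptprn at 8.78 against 6.77 to 7.33 CPM. Ptprn2 was at 18.7 CPM in KSR23 2 against 14.9 to 15.9, and Syt7 at 2.84 CPM in KSR23 4 against 2.11 to 2.29.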

How the results depend on the processing

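Mafa was called lower under all 20 alternatives (log2 FC -0.91 to -0.71, adjusted p 0.000905 to 0.0377). The count of islet factors called was 2, through Nkx2-2, with DESeq2 (log2 FC -0.29), with library totals less the 50 highest genes (-0.30, adjusted p = 0.0446), and with totals less enzyme and Reg genes (-0.30, adjusted p = 0.0418). With 1 library left out the count was 1 to 2 and the Nkx2-2 log2 FC -0.33 to -0.23, and it was called without WT 2 (-0.33, adjusted p = 0.0412). Against granule genes 3 islet factors were called, 2 to 4 with 1 library left out (2 without KSR23 1) and 0 with the hormone reference. The genes behind these counts changed. The Pdx1 call was lost without WT 3 (adjusted p = 0.067) or KSR23 5 (adjusted p = 0.0795), and in both fits Mafa was called lower. The Pax6 call was lost without KSR23 1 (adjusted p = 0.0967). Of the other endocrine factors 8 were called, 5 without WT 1 and 2, and 5 to 9 with 1 library left out, the lowest without KSR23 5. All genes called numbered 3321 to 4652 over the alternatives against 4299. Library totals alone gave 3072 higher and 1164 lower against 2250 and 2049, and moved the median log2 FC of all genes to 0.09. The cause of these changes was not tested.

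The replicate block gave 3749 calls, and Mafa at -0.84 (adjusted p = 0.0155). Equal replicate numbers name different mice, and the correlations of their deviations were -0.11 to 0.07. Such weak correlations do not decide whether equal numbers share a litter, which is not given in the sources used here. Pdx1, Nkx6-1, Neurod1, Neurog3 and Pax6 were called under none of the 20 alternatives that keep a genome-wide scaling, and Pdx1, Nkx6-1, Neurog3 and Pax6 changed sign under some. Depth limits Neurog3 (9 to 46 counts) and Pax4 (0 to 3).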
